A study of Mus musculus with 405 samples.

Results

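Rotenone, Pyridaben, Fenpyroximate and Tebufenpyrad are the inhibitors of mitochondrial complex I that were found by name among the sample labels of the screen. They accounted for 5 of its 393 libraries and for 4 of its 297 chemicals. Rotenone and Tebufenpyrad were used at 0.01 μM, and Pyridaben and Fenpyroximate at 0.1 μM. Rotenone had 2 libraries, and the other 3 chemicals had 1 library each. They were compared with the 49 vehicle libraries of the same screen, which received the solvent dimethylsulphoxide without a chemical. The complex III inhibitor Pyraclostrobin, with 1 library at 0.1 μM, served as a comparison at the same dose.

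All libraries came from cultured cortical neurons of mouse embryos dated at day 15 by the labels. The embryos were hybrids of C57BL/6J mothers and CAST/EiJ fathers. Every culture, vehicle included, was grown in Neurobasal medium with B27 supplement and had received 5-fluoro-2′-deoxyuridine, which blocks dividing cells, before the chemical was added on day 7 in vitro for 24 h. The labels call each dose non-cytotoxic. They do not say whether the 2 rotenone libraries, or any vehicle libraries, came from separate cultures, so p-values measure the spread between these libraries, which may be in part technical. The neuron marker Tubb3, a tubulin, reached 2475 ± 348 CPM (counts scaled to the library total) in the 4 vehicle libraries of a separate count table (mean ± SD, n = 4), beside 53.5 ± 61.9 CPM for Gfap, the intermediate filament of astrocytes. The cultures thus held the labelled cell type and also cells that express an astrocyte gene.

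Complex I is the large enzyme of the inner mitochondrial membrane that oxidises NADH, hands the electrons to ubiquinone and pumps protons. Rotenone is a rotenoid from the roots of legumes. Pyridaben, a pyridazinone, Fenpyroximate, a pyrazole oxime derivative, and Tebufenpyrad, a pyrazole carboxamide, are synthetic acaricides. All of these chemicals block the passage of electrons to ubiquinone. Pyridaben and Tebufenpyrad carry a tert-butylphenyl group that rotenone lacks. Neurons depend on oxidative phosphorylation for most of their ATP, and rotenone is used to model Parkinson disease in rodents.

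A value in the screen is a deviation on the log2 scale, that is, the expression of a gene in a library relative to the median of that gene over the screen. A difference between groups is therefore a log2 fold change, but levels of different genes cannot be compared. The depth of the screen libraries was not known from these values. In the count table the vehicle libraries held 2778615 to 7833440 counts, and of the 13304 genes of the screen 10803 reached a mean of 5 CPM there. Groups of 1 library were assumed to vary like the vehicle libraries. The median standard error of a difference from vehicle was 0.25 for a chemical with 1 library and 0.18 for rotenone. The lowest vehicle mean log2 value was -1.22 over the 9 dividing-cell markers and -0.72 over the 8 astrocyte markers measured. One vehicle library stood apart in single genes, at -2.76 for the smooth muscle actin gene Acta2 and 1.40 for the GABA enzyme gene Gad2. No fit left that library out. Another vehicle library (replicate 18 in the order of the samples) was left out in a further fit. The numbers of genes called were then 1262 in place of 1287 for fenpyroximate, 187 in place of 186 for rotenone and 159 in place of 163 for pyridaben.

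The chemicals differed widely in the number of genes that passed the test against vehicle, adjusted p under 0.05 in limma with Benjamini-Hochberg adjustment over 13304 genes. Fenpyroximate changed 1287 genes, 9.67% of those tested, of which 297 (2.23%) rose and 990 (7.44%) fell. Rotenone changed 186 genes (1.40%), of which 50 (0.376%) rose and 136 (1.02%) fell. Pyridaben changed 163 genes (1.23%), all of them lower, and 793 genes had an unadjusted p under 0.05. Tebufenpyrad changed 2 genes (0.0150%), and 634 had an unadjusted p under 0.05. The doses differ between these groups, so the numbers are not a comparison of potency. The SD of the log2 values over all genes was 0.271 in the pyridaben library and 0.478 in the fenpyroximate library. Vehicle libraries ranged from 0.266 to 0.522. The part of this spread in the numbers of calls was not tested.

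**Figure D1:**
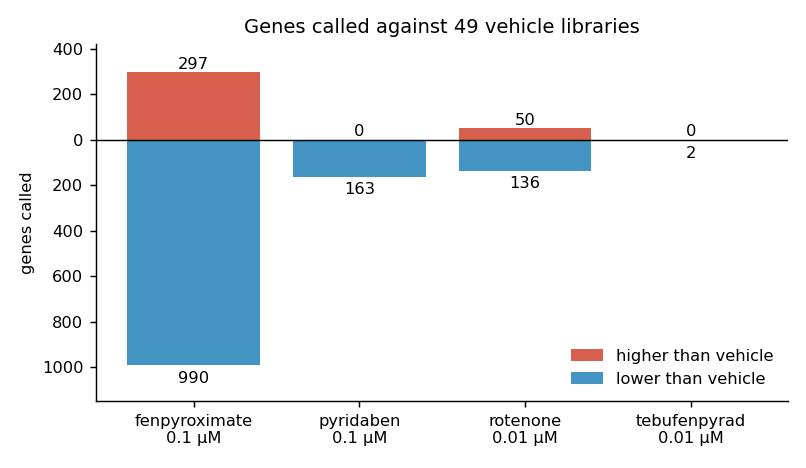
Number of genes higher and lower than in 49 vehicle libraries (y axis, genes with adjusted p under 0.05 in limma, rises upward and falls downward) for each of the 4 complex I inhibitors (x axis). Fenpyroximate stands out with 990 genes lower and 297 higher, and pyridaben has no gene higher.

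The libraries also differed in how far they lay outside the vehicle range. The fenpyroximate library was below all 49 vehicle libraries for 1566 genes (11.8%) and above all of them for 675 (5.07%). For pyridaben the numbers were 626 (4.71%) below and 37 (0.278%) above. The tebufenpyrad library was below for 229 genes (1.72%) and above for 269 (2.02%). Rotenone replicate 1 was below for 746 (5.61%) and above for 2.85% of all genes, replicate 2 was below for 506 (3.80%) and above for 443 (3.33%), and both were below for 96 (0.722%) and above for 93 (0.699%). Across the 13304 genes, which are not independent replicates, the Spearman correlation was 0.492 between the fenpyroximate and pyridaben libraries, 0.211 between the 2 rotenone libraries, and between -0.023 and 0.0274 for tebufenpyrad with the other complex I inhibitors. The 1176 pairs of vehicle libraries ranged from -0.219 to 0.22 with a median of 0.0289. All libraries share the normalization and the centring on the same medians, and these correlations are given as a description.

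Fenpyroximate at 0.1 μM lowered the genes of cholesterol synthesis as a group and raised genes of the contractile cytoskeleton. Of the 22 cholesterol genes measured, 21 fell, none rose, and the median log2 difference was -1.33, beside -0.01 for all genes. Of 21 contractile genes and targets of serum response factor (SRF), 16 rose and none fell, with a median of 0.98. Genes of the synaptic vesicle fell in 19 of 24 cases, with a median of -0.59. Against these, 7.44% of all genes fell and 2.23% rose.

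The cholesterol pathway converts acetyl-CoA into sterols and is switched on together by sterol regulatory element-binding proteins (SREBPs) when membranes hold little sterol. Hsd17b7, a reductase of the late pathway (mm9 chr1:171879666-171899372, minus strand), lay at -1.80 with fenpyroximate, -0.40 with pyridaben, -0.60 and -0.23 in the rotenone libraries and -0.16 with tebufenpyrad, while the vehicle libraries ranged from -0.54 over a median of -0.11 to 0.29. Only the fenpyroximate library and rotenone replicate 1 lay below every vehicle library for this gene. Its difference from vehicle was -1.68 ± 0.22 with fenpyroximate (SE, adjusted p = 6e-07), or 0.312 of the vehicle value. Insig1 (mm9 chr5:28397952-28405201, plus strand), which holds SREBPs back in the endoplasmic reticulum and is itself an SREBP target, lay at -1.70 with fenpyroximate, -0.27 with pyridaben, -0.33 and -0.22 with rotenone and 0.14 with tebufenpyrad, in a vehicle range of -0.55 to 0.55 with a median of -0.16. Here the fenpyroximate library alone was outside the vehicle range, with a difference of -1.59 ± 0.23 (adjusted p = 1.5e-06).

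Other steps of the pathway followed. Cyp51, the lanosterol demethylase, fell by 1.26 ± 0.17 with fenpyroximate (adjusted p = 8.8e-07), Idi1, the isopentenyl diphosphate isomerase, by 1.36 ± 0.22 (1.8e-05) and Mvd, the mevalonate diphosphate decarboxylase, by 2.03 ± 0.39 (0.00021). Sqle, the squalene epoxidase, fell by 0.98 ± 0.19 (0.00018). The lowest difference was that of Stard4, a carrier of cholesterol between membranes, at -2.15, and the weakest that of Srebf2, which encodes the SREBP of this pathway, at -0.48. The 1 gene that did not pass the test was Ebp, a sterol isomerase, at -0.55 ± 0.40 (adjusted p = 0.515). The fenpyroximate library was below all 49 vehicle libraries for 21 of the 22 genes, pyridaben for 3, rotenone replicates 1 and 2 for 2 and 1, and tebufenpyrad for none. The shares of all genes were 11.8%, 4.71%, 5.61%, 3.80% and 1.72% in the same order. The small counts with rotenone and tebufenpyrad therefore say little about this list. None of the 22 passed the test with pyridaben, rotenone or tebufenpyrad, with medians of -0.27, -0.19 and 0.05.

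Because the cholesterol and the contractile genes moved as groups in the fenpyroximate library, the 250 bases before the start of each gene were searched on both strands in RefSeq promoters (GRCm38.p6), which were found by symbol for 9942 of the 13304 genes. CCAAT, the motif read by NF-Y, was present in 13 of the 14 cholesterol promoters found (92.9%), in 10 of 20 contractile promoters, in 4 of 16 promoters of synaptic vesicle genes and in 3617 of all 9942 (36.4%). The sterol regulatory element ATCACNCCAC was present in 14 of all promoters (0.141%) and in none of the 3 lists. The CArG box, the motif of SRF, was present in 5 of 20 contractile promoters, those of Cnn2, Myl9, Lima1, Vcl and Srf, in 0 of 14 cholesterol promoters, in 1 of 16 synaptic vesicle promoters (6.25%), that of Vamp1, and in 113 of all (1.14%). These are matches of letters in a window, and no binding was measured. The last 120 bases before the start of 4 cholesterol genes, 5′ to 3′ on the strand of the gene, show CCAAT or its reverse complement in capitals. They lie at chr1:169969206-169969325 (minus strand) for Hsd17b7, chr5:4104698-4104817 (minus) for Cyp51, chr13:8885486-8885605 (plus) for Idi1 and chr8:122443423-122443542 (minus) for Mvd, in GRCm38.p6, which is not the mm9 build of the expression values.
Hsd17b7: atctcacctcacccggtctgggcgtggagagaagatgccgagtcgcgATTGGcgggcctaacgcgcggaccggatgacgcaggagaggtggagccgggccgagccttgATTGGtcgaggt
Cyp51: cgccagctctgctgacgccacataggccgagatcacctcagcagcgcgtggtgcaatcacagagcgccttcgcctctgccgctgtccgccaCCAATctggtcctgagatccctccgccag
Idi1: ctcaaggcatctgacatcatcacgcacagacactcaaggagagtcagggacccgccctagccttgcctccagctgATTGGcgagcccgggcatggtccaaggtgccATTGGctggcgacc
Mvd: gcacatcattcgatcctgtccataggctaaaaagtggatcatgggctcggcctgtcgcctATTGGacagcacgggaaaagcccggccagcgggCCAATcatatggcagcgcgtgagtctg

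For the contractile genes, Cnn2 (chr10:79988480-79988599, plus strand) and Lima1 (chr15:99820150-99820269, minus strand, both GRCm38.p6) are shown in the same way, with the CArG box in capitals. Its first base lies 56 bases before the start of Cnn2 and 47 bases before that of Lima1, and the same letters stand in both.
Cnn2: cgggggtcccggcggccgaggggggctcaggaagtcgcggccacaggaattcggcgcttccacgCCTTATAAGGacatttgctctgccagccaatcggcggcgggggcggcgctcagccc
Lima1: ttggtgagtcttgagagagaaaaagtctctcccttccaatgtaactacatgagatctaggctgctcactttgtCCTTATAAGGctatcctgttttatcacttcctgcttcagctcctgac

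SRF drives actin and smooth muscle genes when free actin monomer falls. Acta2, the smooth muscle actin (mm9 chr19:34315580-34329826, minus strand), lay at 2.92 with fenpyroximate, 0.80 with pyridaben, 1.12 and 1.64 with rotenone and 0.12 with tebufenpyrad, with a vehicle range of -2.76 to 0.93 and a median of -0.06. The fenpyroximate library and both rotenone libraries were above every vehicle library. Acta2 was 7.92-fold higher than vehicle with fenpyroximate (log2 difference 2.98 ± 0.63, adjusted p = 0.00066), while with rotenone the difference was 1.45 ± 0.45 (adjusted p = 0.082). Tagln, the actin-binding protein transgelin (mm9 chr9:45737711-45744141, minus strand), lay at 2.52, 0.51, 1.30, 1.20 and -0.03 in the same order of libraries, above the vehicle range of -1.14 to 0.77 (median 0.10) for fenpyroximate and for both rotenone libraries. It was 5.77-fold higher with fenpyroximate (2.53 ± 0.47, adjusted p = 0.00013). Cnn2, a calponin, rose by 1.87 ± 0.43 (0.002), Cald1, the actin-binding caldesmon, by 1.23 (0.001), Tpm4, a tropomyosin, by 0.86 (0.0041) and Flna, a filamin that cross-links actin, by 0.73 (0.0011). Cnn1, the smooth muscle calponin, differed by 2.11 with an adjusted p of 0.069.

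Targets of the transcriptional coactivators YAP and TAZ, which respond to cell shape and tension, rose in 11 of 12 cases with fenpyroximate. Their median was 0.80, and 2.23% of all genes rose. Cyr61, a matricellular protein, lay at 1.28 with fenpyroximate, 0.24 with pyridaben, 0.61 and 0.72 with rotenone and -0.08 with tebufenpyrad, in a vehicle range of -0.57 to 0.39. As for Acta2, fenpyroximate and both rotenone libraries were above the range. The fenpyroximate difference was 1.29 ± 0.25 (adjusted p = 0.00017). Ctgf, the connective tissue growth factor, rose by 1.03 (0.0012), and Axl, a receptor tyrosine kinase, by 1.23. Fenpyroximate was above all vehicle libraries for 19 of the 21 contractile genes and 11 of the 12 YAP and TAZ targets, beside 5.07% of all genes.

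Markers of other cells moved in the same library. The mean over the 9 mural cell and fibroblast markers measured was 1.33 with fenpyroximate, beside -0.80 to 0.56 in the vehicle libraries, and 4 of the 9 rose, which were Acta2, Tagln and the collagen genes Col1a1 (2.01 ± 0.48, adjusted p = 0.0026) and Col1a2 (1.48, 0.047). Acta2 and Tagln also belong to the contractile list. The mean over 9 dividing-cell markers was 0.86 (vehicle -1.22 to 0.53), over 6 microglia markers 0.93 (vehicle -0.57 to 0.50) and over 8 astrocyte markers 0.55 (vehicle -0.72 to 0.47). Among these, Sox9, a transcription factor of astrocytes, rose by 0.70 ± 0.23 (adjusted p = 0.044) and Cd68, a lysosomal protein of phagocytes, by 1.75 ± 0.52 (0.02), while none of the dividing-cell markers passed the test. Gfap and Cx3cr1, the microglial fractalkine receptor, did not pass it with any of the 4 chemicals. Neuron markers went the other way, with 8 of 12 lower, a mean of -0.69 (vehicle -0.17 to 0.39) and a library value below every vehicle library for 10. Of all genes, 2.23% rose and 7.44% fell with fenpyroximate, and 11.8% lay below every vehicle library. The part of these cell types in the changes of the other lists was not tested, and in bulk cultures fewer cells of a type and less RNA per cell cannot be told apart.

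**Figure D2:**
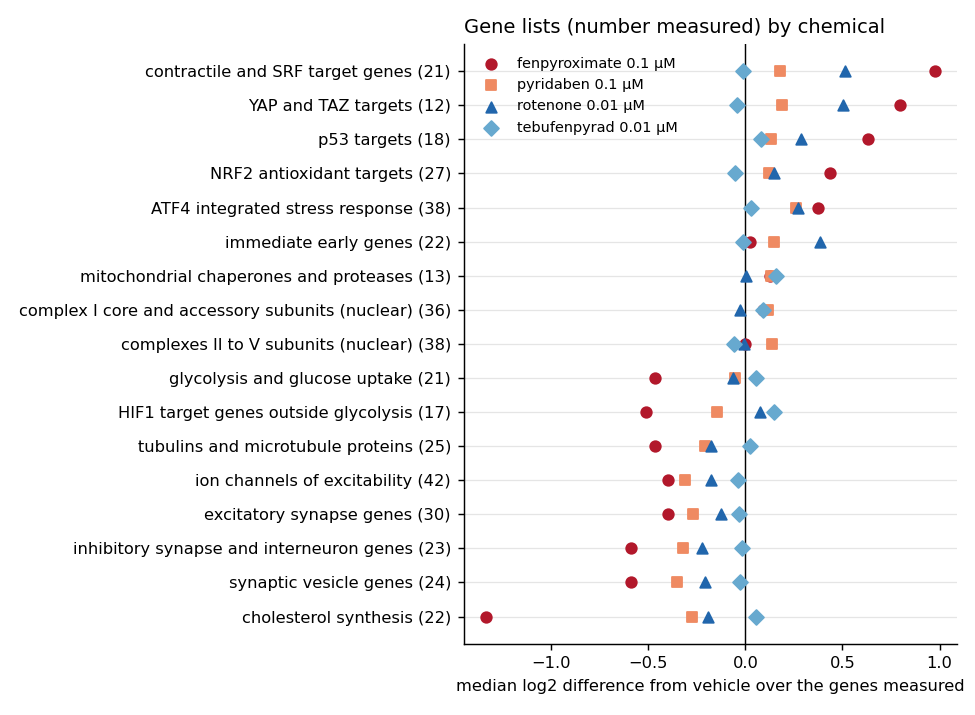
Median log2 difference from vehicle (x axis) over the measured genes of the lists shown (y axis, number of genes in brackets), with a symbol for each of the 4 chemicals. Among the lists drawn, fenpyroximate spans the widest range of the 4, from -1.33 for cholesterol synthesis to 0.98 for contractile genes, where tebufenpyrad is at 0.05 and -0.01.

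Fenpyroximate also raised members of the oxidative stress and p53 lists. Hmox1, the heme oxygenase that NRF2 induces under oxidative and electrophilic stress (mm9 chr8:77617490-77624495, plus strand), lay at 2.18 with fenpyroximate, 0.34 with pyridaben, 1.10 and 0.59 with rotenone and -0.39 with tebufenpyrad. The vehicle libraries lay between -0.87 and 0.61 with a median of -0.04, so that fenpyroximate and rotenone replicate 1 were above them and rotenone replicate 2 was not. It was 4.73-fold higher with fenpyroximate (2.24 ± 0.32, adjusted p = 1.3e-06). Beside 2.23% of all genes higher and 7.44% lower, 6 of the 27 NRF2 targets rose and none fell, with a median of 0.44. Among them Srxn1, the sulfiredoxin that restores peroxiredoxins, rose by 0.66 ± 0.16 (adjusted p = 0.0027), Txnrd1, a thioredoxin reductase, by 0.61 (0.0024), Gstm1, a glutathione transferase of a family with close copies that may share reads, by 1.22 (0.0021) and Fth1, the ferritin heavy chain, by 0.32 (0.023). Nqo1, a quinone reductase and a classic NRF2 target, differed by 1.73 ± 0.85 (adjusted p = 0.24).

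Of 15 scavengers of superoxide and peroxide, Prdx6, a peroxiredoxin, rose by 0.91 ± 0.18 (adjusted p = 0.00027) and Prdx2 fell by 0.42 (0.027), beside 2.23% of all genes higher and 7.44% lower. Of 18 p53 targets, 6 rose, with a median of 0.63. They included Pmaip1, the pro-apoptotic protein Noxa (0.94, adjusted p = 0.002), Ccng1, a cyclin (0.73 ± 0.18, 0.0034), Mdm2, the ligase that degrades p53 (0.63, 0.011), and Cdkn1a, the inhibitor of cyclin-dependent kinases p21 (0.49, 0.049). Ccng1 lay at 0.73 with fenpyroximate, 0.09 with pyridaben, 0.41 and 0.40 with rotenone and 0.02 with tebufenpyrad, in a vehicle range of -0.77 to 0.43, so that fenpyroximate alone was outside it.

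The integrated stress response, through which ATF4 reacts to faults of mitochondria and to lack of amino acids, was represented by 38 genes. Of these, 4 rose and 1 fell with fenpyroximate (median 0.37), beside 2.23% of all genes higher and 7.44% lower. The fall of 1 gene is not above that share. Atf5, a transcription factor of the mitochondrial stress response (mm9 chr7:52067627-52072028, minus strand), lay at 0.60 with fenpyroximate, 0.30 with pyridaben, 0.50 and 0.49 with rotenone and -0.07 with tebufenpyrad, in a vehicle range of -0.75 to 0.37 with a median of -0.13. It rose by 0.74 ± 0.23 with fenpyroximate (adjusted p = 0.028). Psat1, an enzyme of serine synthesis, rose by 0.54 (0.0095), Slc3a2, a subunit of amino acid transporters, by 0.48 (0.047), and Vldlr, the very low density lipoprotein receptor, fell by 0.53 ± 0.12 (0.0015). Gdf15, a hormone secreted under mitochondrial stress, did not pass the test with any of the chemicals, with differences of 1.16 for fenpyroximate, 0.90 for pyridaben, 0.64 for rotenone and -0.88 for tebufenpyrad. Ddit3, Trib3 and Atf3, which encode CHOP, a pseudokinase and a further factor of this response, did not pass it either.

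Of 21 genes of glycolysis and glucose uptake 5 fell with fenpyroximate, 16 did not pass the test and none rose (median -0.47), beside 7.44% of all genes lower. Those that fell included Pfkl, a phosphofructokinase (-1.13, adjusted p = 0.043), Ldha, the lactate dehydrogenase (-0.87, 0.036), and Hk1, the main hexokinase of brain (-0.49, 0.04). Of 17 further targets of the hypoxia factor HIF1, 6 fell and none rose (median -0.51). Pdk1, the kinase that keeps pyruvate out of mitochondria, lay at -1.41 with fenpyroximate, -0.44 with pyridaben, -0.42 and -0.19 with rotenone and 0.09 with tebufenpyrad, in a vehicle range of -0.72 to 0.68. Bnip3l, a receptor for the removal of mitochondria, lay at -0.97, -0.20, -0.50, -0.11 and 0.09 in the same order, in a vehicle range of -0.46 to 0.44. For Pdk1 the fenpyroximate library alone was below the range, and for Bnip3l rotenone replicate 1 was slightly below it as well. The differences with fenpyroximate were -1.40 ± 0.31 (adjusted p = 0.0012) for Pdk1 and -1.02 ± 0.16 (4.4e-06) for Bnip3l, and Bnip3, its relative, fell by 1.60 ± 0.45 (0.015). Slc2a1, the glucose transporter of the blood-brain barrier, and Hk2, an inducible hexokinase, did not pass the test with any of the 4 chemicals.

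Synaptic and neuronal genes were lower with fenpyroximate. Besides the 19 of 24 vesicle genes, 14 of 30 excitatory synapse genes (median -0.40), 11 of 23 inhibitory synapse and interneuron genes (median -0.59) and 16 of 25 tubulins and microtubule proteins (median -0.46) fell. Of all genes 7.44% fell with this chemical. One microtubule gene rose, Tubb6, a beta tubulin of non-neuronal cells (1.20, adjusted p = 0.00024). Gad2, which makes the transmitter GABA, lay at -1.55 with fenpyroximate, -1.06 with pyridaben, -0.54 and -0.37 with rotenone and 0.03 with tebufenpyrad, in a vehicle range of -0.48 to 1.40 with a median of -0.04. Fenpyroximate, pyridaben and rotenone replicate 1 were below the range. Gad2 fell by 1.58 ± 0.31 with fenpyroximate (adjusted p = 0.0003), Gad1, the other GABA-producing enzyme, by 1.55 (0.00013), and Dlx1, a homeobox factor of interneurons, by 1.44 (1.8e-06). Of 15 Parkinson disease genes 4 fell, but the median of the list was -0.01, with 7 of the 15 genes above 0. Those that fell included Uchl1, a ubiquitin hydrolase (-0.67, 0.00082), Atp13a2, a lysosomal transporter (-0.54, 0.0022), and Park2, which encodes the ubiquitin ligase parkin (-1.88, 0.0064).

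Of 17 genes on a list of REST, a repressor of neuronal genes, and its targets, 8 fell with fenpyroximate, among them Nefl, the neurofilament light chain (-0.79 ± 0.16, adjusted p = 0.00035), and Celsr3, an axon guidance cadherin (-0.87, 0.00041). Rest itself differed by 0.53 (adjusted p = 0.37). Of 42 ion channels 7 fell (median -0.40), led by the potassium channels Kcnc2 (-1.51, 8.7e-05) and Kcna1 (-1.04, 0.0011). Of 14 secreted factors that depend on activity, Sst, somatostatin (-0.77, 0.029), and Tac1, the precursor of substance P (-1.97, 0.035), fell. Of 22 immediate early genes, Btg2, which is also a p53 target, rose (0.72, 0.033), while Fos (0.58), Npas4 (-0.80) and, among the secreted factors, Bdnf (0.37) did not pass the test. Of 7 oligodendrocyte markers Mog fell (-1.05, 0.019), and Kdr, the only endothelial marker measured, did not pass it. Against these counts, 7.44% of all genes fell and 2.23% rose with fenpyroximate. The few calls among the secreted factors, immediate early genes and oligodendrocyte markers therefore say little about those lists.

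The largest rises with fenpyroximate among genes of at least 5 CPM, besides Acta2, Tagln and Hmox1, were Hspg2, the basement membrane proteoglycan perlecan (2.39 ± 0.41, adjusted p = 4e-05), and Anxa3, an annexin (2.39). The largest falls were Syna, a syncytin (-2.64 ± 0.35, adjusted p = 4.8e-07), Kiss1r, the kisspeptin receptor (-2.40 ± 0.33, 8.8e-07), Sec14l3 (-2.36), Gm15760 (-2.21) and Stard4. Syna lay at -2.58 with fenpyroximate and at -0.53, -0.31, 0.09 and 0.14 with pyridaben, the rotenone libraries and tebufenpyrad, where the vehicle libraries ranged from -0.67 to 0.91.

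Pyridaben at 0.1 μM lowered genes of the synapse and of neuronal excitability, and none of its 163 calls was a rise. Of the lists, 5 of 24 vesicle genes (median -0.35), 6 of 42 ion channels of excitability (median -0.31) and 2 of 30 excitatory synapse genes (median -0.27) fell, beside 1.23% of all genes. The pyridaben library lay below all 49 vehicle libraries for 15 of the 24 vesicle genes and for 8 of the 12 neuron markers, beside 4.71% of all genes.

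Unc13a, which primes synaptic vesicles for release (mm9 chr8:74150614-74195656, minus strand), lay at -0.79 with pyridaben, -0.91 with fenpyroximate, -0.13 and -0.27 with rotenone and -0.11 with tebufenpyrad, in a vehicle range of -0.22 to 0.35 with a median of 0.00. It fell by 0.80 ± 0.14 with pyridaben (adjusted p = 0.00035) and by 0.92 ± 0.14 with fenpyroximate (3.7e-06). Syn1, the vesicle phosphoprotein synapsin I (mm9 chrX:20437637-20498130, minus strand), lay at -0.53 with pyridaben, -0.68 with fenpyroximate, -0.39 and -0.22 with rotenone and -0.06 with tebufenpyrad, in a vehicle range of -0.15 to 0.56. All libraries but tebufenpyrad were below every vehicle library for Syn1. Its differences from vehicle were -0.63 ± 0.15 with pyridaben (adjusted p = 0.018), -0.78 ± 0.15 with fenpyroximate (0.00024) and -0.40 ± 0.11 with rotenone (0.045), which made it one of the genes that passed the test with these 3 chemicals.

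Vamp1, a vesicle protein that drives fusion, fell by 1.58 ± 0.33 with pyridaben (adjusted p = 0.0026), Syn3, a synapsin, by 1.03 (0.00072) and Shank1, a scaffold of excitatory synapses, by 0.93 (0.00035). Among channels, Cacna1b, the pore of N-type calcium channels, lay at -0.82 with pyridaben, -0.51 with fenpyroximate, -0.03 and -0.19 with rotenone and 0.03 with tebufenpyrad, with a vehicle range of -0.26 to 0.44. It fell by 0.90 ± 0.16 (adjusted p = 0.00035), and the sodium channel genes Scn3a and Scn2a1 fell by 0.89 ± 0.15 (0.00025) and 0.59 (0.00095). For Cacna1b pyridaben and fenpyroximate were below the range and the other libraries were within it. Dcx, the doublecortin of migrating neurons, fell by 0.55 (0.0071), and Rbfox3, the neuronal splicing factor NeuN, by 0.79 ± 0.20 (0.022).

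The largest falls with pyridaben were Tmem63c, Hapln1, Cdr1, Nxph2 and Proz. Tmem63c, a membrane protein of a family of osmosensitive channels (mm9 chr12:88362290-88430993, plus strand), lay at -3.10 with pyridaben, -0.69 with fenpyroximate, -0.30 and 0.14 with rotenone and 0.23 with tebufenpyrad, in a vehicle range of -0.94 to 1.26. Only pyridaben was outside the range, with a difference of -3.24 ± 0.41 (adjusted p = 3.1e-06). Nxph2, a neurexin-binding secreted protein (mm9 chr2:23176766-23257493, plus strand), lay at -1.72 with pyridaben, -1.88 with fenpyroximate, -0.58 and -0.17 with rotenone and -0.00 with tebufenpyrad, in a vehicle range of -0.32 to 1.33. Rotenone replicate 1 was below the range as well. Nxph2 fell by 1.83 ± 0.32 (0.00041), and Hapln1, a link protein of the perineuronal matrix, by 1.92 ± 0.29 (5.2e-05).

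Neuron markers were low in the pyridaben library too, with a mean of -0.45 beside -0.17 to 0.39 in the vehicle libraries, and 1 of the 12, Rbfox3, passed the test. The means of the astrocyte (0.08), mural cell (0.26), dividing-cell (0.15) and microglia markers (-0.23) lay within the vehicle range. The part of the neuron markers in the fall of synaptic genes was not tested. The median length of the 150 pyridaben genes with a match in GENCODE M1 was 37.4 kb (interquartile range 12.6 to 85), beside 24.9 kb (10 to 61.3) for the 12261 genes of the screen with a match. The median was 28.4 kb for genes that fell with fenpyroximate. For the 127 matched genes that fell with rotenone it was also 37.4 kb (19.5 to 75.9).

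**Figure D3:**
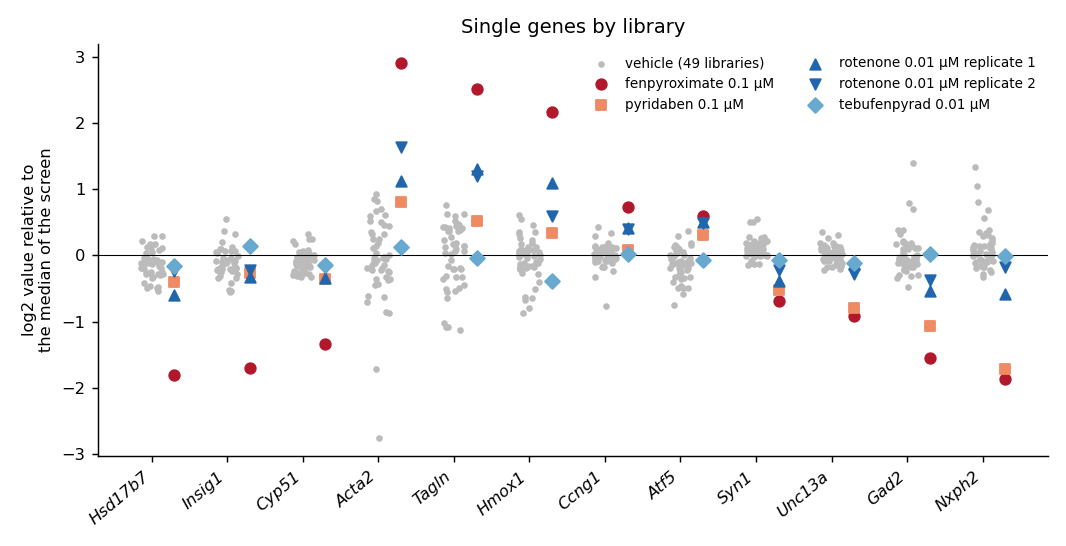
Log2 value (y axis) of 12 genes in each of the 49 vehicle libraries and in the 5 libraries of complex I inhibitors, a point for each library. Syn1 and Unc13a are low with both fenpyroximate and pyridaben, while Hsd17b7, Insig1, Acta2 and Hmox1 are farthest from vehicle with fenpyroximate.

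Rotenone at 0.01 μM raised 4 of the contractile genes and 2 of the YAP and TAZ targets, and the neuronal genes it lowered were few members of their lists. Of 21 contractile genes 4 rose (median 0.51) and of 12 YAP and TAZ targets 2 rose (median 0.50), beside 0.376% of all genes. Both libraries lay above all vehicle libraries for 9 and 5 of these genes, beside 0.699% of all genes. Tagln rose by 1.26 ± 0.34 (adjusted p = 0.042), Cnn2 by 1.28 ± 0.31 (0.025), Tpm4 by 0.60 (0.03) and Flna by 0.46 (0.03). Cyr61 rose by 0.67 (0.035) and Ctgf by 0.61 (0.039). The mural markers had means of 0.62 and 0.53 in the 2 libraries, beside a highest vehicle value of 0.56, and the neuron markers -0.28 and -0.14, beside a lowest of -0.17.

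Csf1 and Thbs1 were among the largest rises with rotenone. Csf1, the growth factor of macrophages and microglia, lay at 1.29 and 0.71 with rotenone, 1.66 with fenpyroximate, 0.32 with pyridaben and 0.47 with tebufenpyrad, in a vehicle range of -0.92 to 0.72 with a median of -0.03. Fenpyroximate and rotenone replicate 1 were above the range, and replicate 2 was just within it. Csf1 rose by 1.01 ± 0.22 with rotenone (adjusted p = 0.016) and by 1.67 ± 0.31 with fenpyroximate (0.00013). Thbs1, the matrix protein thrombospondin, lay at 0.98 and 0.80 with rotenone, 1.89 with fenpyroximate, 0.32 with pyridaben and -0.05 with tebufenpyrad, in a vehicle range of -0.53 to 0.63. Both rotenone libraries and fenpyroximate were above it, and the difference with rotenone was 0.93 ± 0.20 (adjusted p = 0.015). Hmox1 rose by 0.91 ± 0.23 (0.029), Prdx6 by 0.54 ± 0.13 (0.022) and Atf5 by 0.64 ± 0.16 (0.035). Gadd45g, a stress-response gene of growth arrest, rose by 1.04 (0.036). Of the immediate early genes, which respond to neuronal activity, none passed the test with rotenone, and their median was 0.38.

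Among neuronal genes, Tubb4a, a neuronal tubulin, lay at -0.45 and -0.28 with rotenone, -0.73 with fenpyroximate, -0.34 with pyridaben and -0.07 with tebufenpyrad, in a vehicle range of -0.13 to 0.42. It fell by 0.44 (adjusted p = 0.005). Dlx1 fell by 0.65 (0.019), Nrxn2, a presynaptic adhesion protein, by 0.32 (0.016), Camk2a, a kinase of the postsynaptic density, by 0.30 (0.042), and Dnajc6, auxilin, a Parkinson disease gene of vesicle recycling, by 0.31 (0.026). These were few members of their lists, of which 2 of 30 excitatory genes and 1 of 24 vesicle genes fell, beside 1.02% of all genes.

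The 2 rotenone libraries did not carry the calls equally. Of the 136 genes that fell, both libraries were below all vehicle libraries for 65, replicate 1 alone for 37, replicate 2 alone for 28 and neither for 6, and for 6 the libraries stood on opposite sides of the vehicle mean. Of the 50 that rose, both were above for 36, replicate 1 alone for 10 and replicate 2 alone for 3. The largest falls came mostly from 1 library. Lamtor2, a lysosomal scaffold, lay at -0.00 and -4.04, 4930447A16Rik at -3.97 and 0.23, Gm15941 at -3.64 and 0.23, and Dcaf13 at -0.48 and -3.00. Urod, an enzyme of heme synthesis, was low in both at -1.51 and -2.42, but the lowest vehicle library was at -2.49. With replicate 1 or 2 left out, 44 to 80 genes were called, and Tagln, Cnn2, Thbs1, Gadd45g and Urod no longer passed the test in either case, nor Csf1 without replicate 1.

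Tebufenpyrad at 0.01 μM gave 2 calls, both lower. Polr2h, a subunit shared by the RNA polymerases, lay at -2.77 (difference -2.87, adjusted p = 0.0036), and Klhl10, a substrate adaptor known from testis, at -3.31 (-3.12 ± 0.58, 0.014). Their means in the 4 vehicle libraries of the count table were 4.06 and 2.36 CPM, which corresponds to few counts, since 1 CPM was 2.78 to 7.83 counts there. The medians of the cholesterol, contractile, YAP and TAZ and vesicle lists were 0.05, -0.01, -0.04 and -0.03, and no gene of the first 2 lists lay outside the vehicle range in the direction seen with fenpyroximate. The mean over the neuron markers was 0.03.

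Genes of the respiratory chain itself were counted in the same way. Of 36 nuclear subunits of complex I, none passed the test with fenpyroximate (median 0.09), pyridaben (0.12) or tebufenpyrad (0.09). With rotenone 1 did, Ndufa3, an accessory subunit, which lay at -2.14 and -1.04 in a vehicle range of -1.44 to 0.94 and differed by -1.49 ± 0.40 (adjusted p = 0.042). The shares of all genes called, 9.67% with fenpyroximate, 1.23% with pyridaben, 1.40% with rotenone and 0.0150% with tebufenpyrad, leave few or no calls for a list of this size with the last 3 chemicals. Ndufs4, an accessory subunit mutated in Leigh syndrome, did not pass the test with any chemical. None of 14 assembly factors, 38 subunits of complexes II to V and 12 regulators of mitochondrial biogenesis, Ppargc1a among them, was called with any of the 4 chemicals. Among 13 mitochondrial chaperones and proteases Hspa9, the mitochondrial Hsp70, rose with fenpyroximate by 0.40 (0.0498). Among 17 genes of mitophagy and mitochondrial dynamics Park2 fell. Transcripts of the mitochondrial genome were not analysed here.

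**Figure D4:**
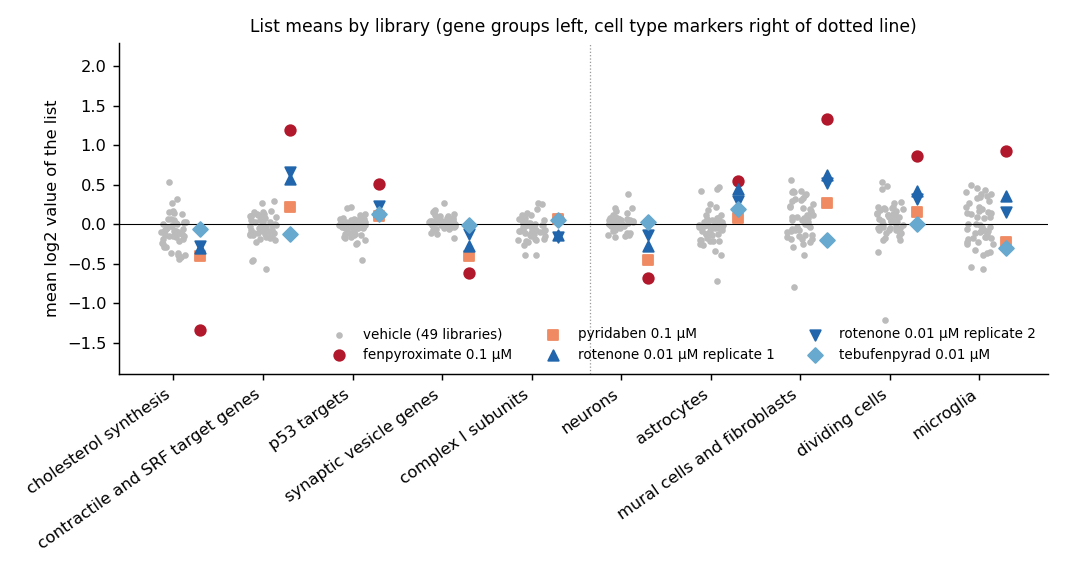
Mean log2 value (y axis) over the measured genes of selected lists in each of the 49 vehicle libraries and each of the 5 complex I inhibitor libraries. The fenpyroximate library lies below the vehicle libraries for cholesterol synthesis and neuron markers and above them for contractile genes, and all libraries overlap with vehicle for complex I subunits.

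In the mean of the 4 chemicals, each with the same weight, 1275 genes (9.58%) passed the test, of which 290 (2.18%) rose and 985 (7.40%) fell. Among the lists, 19 of 24 vesicle genes, 16 of 22 cholesterol genes and 15 of 25 tubulins and microtubule proteins fell, and 13 of 21 contractile genes rose. Shank1 fell by 0.64 ± 0.08 (adjusted p = 7.4e-08). Fam13b had among the largest falls (-1.03 ± 0.13, 2.1e-07). Fam13b was low in every complex I library, at -1.34 with fenpyroximate, -0.88 with pyridaben, -0.63 and -0.38 with rotenone and -0.51 with tebufenpyrad, in a vehicle range of -0.56 to 0.80. The last 2 values lay within that range. Mc4r, the melanocortin receptor of energy balance, fell by 1.05, and Lgals1, a galectin, rose by 1.23. Slc7a5, an amino acid transporter, rose by 0.26 (0.012), Asns, the asparagine synthetase, by 0.27 (0.035) and Slc16a1, a lactate carrier, by 0.26 (0.01).

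The fenpyroximate library decided much of this mean. Without it, 163 genes were called, of which 4 rose and 159 fell, while without rotenone 846 were called, without pyridaben 1064 and without tebufenpyrad 1752. The named genes that passed the test without fenpyroximate were all lower. They were Unc13a (-0.38, adjusted p = 0.00256), Syn1 (-0.40, 0.00381), Syn3, Shank1 (-0.46, 0.00191), Vamp1, Camk2a, Nrxn2, Nxph2 and Hapln1. Tubb4a (-0.33, 0.00216), Dcx, Dlx1, Dnajc6, Cacna1b, Scn2a1 (-0.33, 0.00142), Kcna1, a potassium channel, Tmem63c and Fam13b (-0.85, 0.000597) were the others. Hsd17b7, Cyp51, Acta2, Tagln and Hmox1 did not pass the test then. Many named genes were taken from lists of synaptic and neuronal genes, so these names do not describe the 163 genes as a whole.

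Only 2 pairs of these chemicals shared dose and time, and the adjustment of p-values covered both pairs together. Fenpyroximate and pyridaben, the pyrazole oxime derivative and the pyridazinone, were compared at 0.1 μM with 1 library each. No gene passed the test in limma, and 604 had an unadjusted p under 0.05. The lowest adjusted p was 0.12, that of Insig1, with a difference of -1.43 and a 95% interval of -2.07 to -0.80. Hsd17b7 followed at -1.40 (interval -2.03 to -0.77, adjusted p = 0.13), and the median difference over the 22 cholesterol genes was -0.996, with 19 of them lower at an unadjusted p under 0.05. For Hmox1 the difference was 1.84 (0.95 to 2.73, adjusted p = 0.21), for Acta2 2.11 (0.35 to 3.88) and for Tagln 2.01 (0.68 to 3.34). Contractile genes had a median difference of 0.85, with 12 of 21 higher at an unadjusted p under 0.05, and YAP and TAZ targets 0.71. Tmem63c went the other way, lower with pyridaben, with a difference of 2.42 (1.26 to 3.58, adjusted p = 0.20).

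Synaptic genes gave smaller differences in the same pair. The difference was -0.12 for Unc13a (interval -0.51 to 0.27), -0.16 for Syn1 (-0.58 to 0.27) and -0.16 for Nxph2 (-1.07 to 0.76), while Hapln1 differed by 0.51 (-0.30 to 1.31). The median was -0.15 over 24 vesicle genes, -0.18 over 30 excitatory synapse genes and -0.23 over 12 neuron markers. The lower bound for Syn1, -0.58, is close in size to the difference of pyridaben from vehicle, -0.63, so a p above the threshold does not show that the chemicals act alike on these genes.

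**Figure D5:**
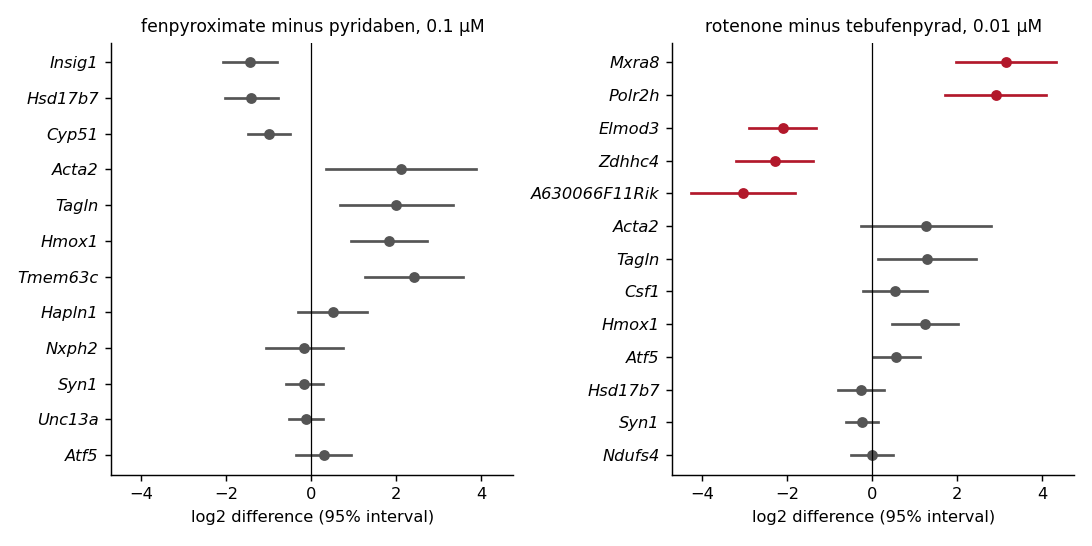
Difference between chemicals on the log2 scale (x axis) with its 95% interval for selected genes (y axis), fenpyroximate minus pyridaben at 0.1 μM and rotenone minus tebufenpyrad at 0.01 μM. Red marks genes with an adjusted p under 0.05. The intervals of Insig1 and Hsd17b7 lie below 0 in the first pair, those of Syn1 and Unc13a cover 0, and the 5 genes in red belong to the second pair.

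Rotenone and tebufenpyrad, the rotenoid and the pyrazole carboxamide, were compared at 0.01 μM with 2 libraries and 1 library. Of the 13304 genes 5 passed the test (0.0376%), of which 2 were higher with rotenone (0.0150%) and 3 lower (0.0225%), and 1022 had an unadjusted p under 0.05. Mxra8, a matrix-remodelling protein, lay at 1.52 and 1.16 with rotenone and at -1.81 with tebufenpyrad, a difference of 3.16 ± 0.58 (adjusted p = 0.023). Polr2h lay at -0.15 and 0.41 against -2.77, a difference of 2.91 (0.046). Elmod3, a GTPase-activating protein, lay at -1.01 in both rotenone libraries against 1.09, a difference of -2.10 (0.023). Zdhhc4, a palmitoyltransferase, differed by -2.29 (0.046) and A630066F11Rik by -3.04 (0.046). Of these 5, Mxra8, Polr2h and A630066F11Rik had vehicle means of 2.64, 4.06 and 2.29 CPM in the count table, and without vehicle replicate 18 there were 2 calls. Elmod3 did not pass the test with either rotenone library left out, nor Zdhhc4 without replicate 2.

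None of the genes that rotenone raised or lowered in its lists passed the test in this pair. Hmox1 differed by 1.24 (0.46 to 2.01, adjusted p = 0.48), Thbs1 by 0.94 (0.25 to 1.63, 0.57), Tagln by 1.28 (0.13 to 2.44), Atf5 by 0.57 (0.01 to 1.13, 0.81), Csf1 by 0.53 (-0.22 to 1.29) and Syn1 by -0.24 (-0.61 to 0.13), and for Acta2 the difference was 1.26 (-0.27 to 2.79). Of the contractile genes 8 of 21 were higher with rotenone at an unadjusted p under 0.05, with a median difference of 0.61 and a lowest adjusted p of 0.307. Of the YAP and TAZ targets 7 of 12 were higher at that level (median 0.55). Of all 13304 genes, 1022 had an unadjusted p under 0.05 in either direction. Cholesterol genes had a median difference of -0.24 and vesicle genes of -0.22.

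Fenpyroximate and pyridaben together were set against pyraclostrobin, which blocks complex III further along the respiratory chain, at the same dose and time. Of 13304 genes 1 passed the test (0.00752%), Gpr6, an orphan receptor, and 240 had an unadjusted p under 0.05. Gpr6 lay at -0.83 with fenpyroximate, -0.31 with pyridaben and -3.91 with pyraclostrobin, in a vehicle range of -1.12 to 1.02, a difference of 3.34 ± 0.61 (adjusted p = 0.019). The median difference over the cholesterol genes was -0.01, with none at an unadjusted p under 0.05, but the averaged chemicals lay on either side of pyraclostrobin, with mean log2 values over the list of -1.34 for fenpyroximate, -0.40 for pyridaben and -0.87 for pyraclostrobin. Contractile genes had a median of -0.43, with 3 lower than with pyraclostrobin at that level. Their mean log2 values were 1.20 for fenpyroximate, 0.22 for pyridaben and 1.25 for pyraclostrobin, so pyridaben alone was far from pyraclostrobin. Vesicle genes had a median of 0.26, with 7 of 24 higher, and means of -0.62, -0.40 and -0.75 in the same order. The Spearman correlation with the pyraclostrobin library over 13304 genes was 0.721 for fenpyroximate, 0.512 for pyridaben, 0.417 and 0.252 for the rotenone libraries and 0.00927 for tebufenpyrad.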

How the data were processed

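Polyadenylated RNA of cortical cultures was sequenced by the authors, who removed artefacts with TagDust, aligned reads to mm9 with TopHat, left out ribosomal RNA and counted reads on RefSeq models. For the screen the authors deposited log10 values made from RPKM after filtering of genes, quantile normalization, centring of each gene on its median and removal of batch effects by a mixed model, so batches could not be examined here and the labels name none. They were divided by log10 of 2. The count values of a second experiment were deposited without normalization; its 4 vehicle libraries were converted to CPM here, to give the level of a gene, and its other columns were not used.

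Libraries were grouped by title. One limma fit (limma 3.58.1, R 4.3.3; variance trend, 49 residual degrees of freedom) held the 55 libraries of the 4 inhibitors, pyraclostrobin and vehicle. Tests were two-sided, with Benjamini-Hochberg adjustment over 13304 genes, or over the 13304 genes of both pairs together for the 2 pairs of chemicals at the same dose, and a threshold of 0.05. Intervals are at 95%. The chemicals, the gene lists and the tests were chosen with earlier results of these data known. Named genes were the 5 largest rises and falls called in each comparison with vehicle and the 3 largest between chemicals, at 5 CPM or more, up to 4 members of each list by smallest p in the mean of the 4 chemicals, and a fixed set of genes such as Gdf15 and Acta2. Some genes that meet this rule are not reported here. Other genes named were chosen after their values were seen. Lists are given by counts and medians, with no test of the list. Python 3.11.15, pandas 2.3.3, numpy 2.4.6 and scipy 1.17.1 were used for tables and promoters. The fit was tested on simulated data. Alternatives were another variance model, filters on level and on variability, centring of libraries, every library in the fit, other chemicals as reference, a threshold of 0.01, leaving out chemicals or libraries and an exact permutation test.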

Additional observations from a re-analysis of the deposited data

Results flagged for a closer look

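The genes that passed the test of a difference between chemicals at the same dose and time were singled out by that test. Between rotenone and tebufenpyrad at 0.01 μM they were Mxra8 (log2 difference 3.16), Polr2h (2.91), Elmod3 (-2.10), Zdhhc4 (-2.29, or -2.295 before rounding) and A630066F11Rik (-3.04, or -3.035 before rounding). Mxra8, Elmod3 and A630066F11Rik had rotenone and tebufenpyrad libraries on opposite sides of 0. Between the mean of fenpyroximate and pyridaben and pyraclostrobin at 0.1 μM it was Gpr6 (3.34), which was low in the pyraclostrobin library. In each case 1 side of the comparison rests on a single library, and no replicate of tebufenpyrad or, in the screen, of pyraclostrobin was there to repeat the value.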

How the results depend on the processing

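The number of genes called moved by over 1.5 times under several settings. At a threshold of 0.01 it was 20 for rotenone, 86 for pyridaben, 739 for fenpyroximate, 1 for tebufenpyrad, 734 for the mean of the 4 chemicals and 0 for rotenone against tebufenpyrad and for the 0.1 μM inhibitors against pyraclostrobin. With variably expressed genes only it was 25, 13, 172, 4 and 138 for the first 5 of these. With the other chemicals as reference it was 109 for rotenone, 83 for pyridaben and 5 for tebufenpyrad. With every library of the screen in the fit it was 5 for tebufenpyrad and 0 against pyraclostrobin, and without a variance trend it was 3 for rotenone against tebufenpyrad. The mean of the 4 chemicals gave 846 calls without rotenone and 163 without fenpyroximate. Vehicle replicate 18 was not the vehicle library that stood apart in Acta2 and Gad2. Leaving out a rotenone library or vehicle replicate 18 (the latter chosen after seeing the data) gave 44 to 187 calls for rotenone, where 187 is the number without the vehicle library and the most without a rotenone library was 80, and 2 to 9 for rotenone against tebufenpyrad.

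Of 1960 values recomputed for 147 results on 138 named genes, 1790 kept direction and side of the threshold, 120 lost the threshold (47 of them without fenpyroximate), 31 gained it and 19 turned sign. Centring each library on its own median, robust estimation and a filter at 1 CPM changed none of the 147. Those that turned sign were, against vehicle with rotenone, 4930447A16Rik (0.12 without replicate 1, -4.07 without replicate 2), Gm15941 (0.116 and -3.75) and Lamtor2 (-4.04 and 0.00138). In the mean of the 4 chemicals they were, none of them called, Slc2a1 (-0.0858 with other chemicals as reference, -0.0185 and 0.0825 without rotenone replicates 1 and 2, -0.0472 without rotenone, -0.0611 without tebufenpyrad), Trib3 (-0.169, -0.0703 and 0.111, -0.164 without rotenone, -0.0561 without pyridaben, -0.0643 without fenpyroximate), Cx3cr1 (-0.0559 without rotenone, -0.0494 without fenpyroximate), Hk2 (0.211) and Ppargc1a (0.0203) without fenpyroximate, Bdnf (-0.0246) without pyridaben, and Cox6c (0.326) and Ndufv2 (0.00673) without tebufenpyrad. For the 3 rotenone genes each value rested on 1 library; for the others the cause was not tested. The exact permutation test over 292825 arrangements of the 4 chemicals among the vehicle libraries (smallest p 3.42e-06) gave p-values without adjustment, so it does not bear on whether the adjusted calls of the mean hold. The 1960 values include those of this test, with 103 counted as kept and 16 as gained.

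No paired analysis was possible because the labels of the screen give the chemicals and the vehicle no shared replicate numbers that mark a culture. Fenpyroximate, pyridaben and tebufenpyrad had 1 library each, so no library was left out within them. The depth of these libraries was unknown.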
